A study of Homo sapiens with 8 samples.

Results

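The plasminogen activator system is described here by 5 genes, PLAU, PLAUR, PLAT, SERPINE2 and SERPINB2. They are 5 of the 16909 genes that had exon-level probesets annotated to a single symbol. At the gene level, 4 of the 5 had a transcript cluster annotated to that gene alone, and SERPINB2 was read only through its 12 exon-level probesets. Together the 5 genes had 75 probesets. The cells were of the human line MDA-MB-231, derived from a triple-negative breast cancer and kept in standard culture. The α3 knockdown cells stably expressed a lentiviral short hairpin RNA (shRNA) against the integrin α3 subunit, and the controls a lentiviral control shRNA. Each group held 2 biological replicates, and each of the 4 cultures was read on 1 Affymetrix Human Exon 1.0 ST array, summarised by gene and again by exon. The arrays include no rescue of α3, so loss of α3 and other effects of the hairpin cannot be told apart.

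Plasminogen activators are serine proteases that cut plasminogen into plasmin, a broad protease that degrades fibrin and matrix proteins and activates other proteases. PLAU encodes the urokinase-type activator (uPA), which works mostly at the cell surface on its receptor, encoded by PLAUR, while PLAT encodes the tissue-type activator (tPA). Their action is held in check by serpins, inhibitors that trap the protease in a covalent complex, and high uPA and receptor levels are a known feature of invasive breast cancer cells. Values below are PLIER intensities, a probe-level summary on a linear scale, and fold changes are differences of log2(intensity + 16), knockdown minus control. A gene was called when its adjusted p was under 0.05 by limma with Benjamini-Hochberg adjustment over all 13207 transcript clusters tested.

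ITGA3, the target of the hairpin, had intensities of 619 and 644 in the α3 knockdown arrays, against 3480 and 3529 in the control arrays, and was 5.44-fold lower on that scale. Array medians were 168 to 171 in knockdown and 177 to 186 in control at the gene level. All 5 markers of mesenchymal-type breast cancer lines lay above the lower 40% of clusters, with summed intensities of 17558 to 17877 in knockdown and 20970 to 21329 in control. The mean of each of the 5 was lower in knockdown, and AXL alone was called. Of 8 luminal markers, ESR1 and PGR lay below that bound of 40%. The sum was 10054 to 11012 in knockdown and 8997 to 9197 in control, most of it from KRT8 and KRT18. KRT18 was called higher, at 5829 and 5466 in knockdown and 4617 and 4422 in control. KRT8 overlapped between the groups, at 4504 and 3899 in knockdown and 4086 and 4069 in control. GATA3, FOXA1, KRT8 and EPCAM were not called. CDH1, which encodes E-cadherin, measured 177 and 168 in knockdown and 25.4 and 28.8 in control and was not tested, since its mean was under the bound. Summed fibroblast markers were 359 to 373 and 341 to 363 in knockdown and control, leukocyte markers 343 to 420 and 332 to 371, and endothelial markers 289 to 318 and 322 to 338, with 1 of 5, 2 of 3 and 0 of 4 of these genes above the bound. The part of these marker shifts in the results below was not tested. In such bulk RNA, fewer cells expressing a gene and less RNA per cell cannot be told apart.

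Of the 4 members with a transcript cluster, PLAU was lower in α3 knockdown, SERPINE2 was higher, and PLAUR and PLAT did not pass the test. Among all clusters tested, 21.4% were called, 15.4% lower and 6.00% higher in knockdown. The split was 2033 lower and 793 higher on the deposited scale, 1700 and 1351 after quantile normalization and 1529 and 1494 after centring each array on its median. A count of 2 in 4 on so few genes, set against this background, describes these genes only.

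The 250 bases before a RefSeq transcription start are shown for PLAU, PLAUR and SERPINE2, the members with the largest gene-level differences, so that the letters next to their starts can be compared. Capitals mark matches, on either strand, to 3 motifs chosen after the windows had been read, the AP-1 core TGANTCA, the CCAAT box and the GC box GGGCGG. PLAU and SERPINE2 each had 2 windows in the RefSeq table (GRCh38.p14), and the one with more matches is printed. A contrast of motifs between the printed windows therefore depends on that choice, and the start used in these cells was not determined. The windows are chr10:73910882-73911131 on the plus strand for PLAU, chr19:43670170-43670419 on the minus strand for PLAUR and chr2:224031479-224031728 on the minus strand for SERPINE2, each written 5′ to 3′.
PLAU: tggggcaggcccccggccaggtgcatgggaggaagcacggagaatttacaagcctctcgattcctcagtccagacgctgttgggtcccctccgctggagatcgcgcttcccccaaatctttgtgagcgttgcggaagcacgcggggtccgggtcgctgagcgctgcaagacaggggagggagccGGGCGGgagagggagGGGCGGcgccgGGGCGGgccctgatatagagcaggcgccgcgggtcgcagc
PLAUR: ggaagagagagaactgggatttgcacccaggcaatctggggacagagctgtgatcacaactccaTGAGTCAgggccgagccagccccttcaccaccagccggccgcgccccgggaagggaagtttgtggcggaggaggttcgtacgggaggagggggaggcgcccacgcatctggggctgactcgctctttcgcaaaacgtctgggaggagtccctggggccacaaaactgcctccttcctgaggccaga
SERPINE2: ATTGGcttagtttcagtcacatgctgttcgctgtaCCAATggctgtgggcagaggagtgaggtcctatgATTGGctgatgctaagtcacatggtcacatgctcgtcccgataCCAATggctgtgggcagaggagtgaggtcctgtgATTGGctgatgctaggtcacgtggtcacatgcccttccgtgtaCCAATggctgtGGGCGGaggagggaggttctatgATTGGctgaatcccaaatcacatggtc

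The PLAU window held 3 GC boxes, starting 66, 51 and 40 bases before the start, and no AP-1 or CCAAT match. The PLAUR window held 1 AP-1 match, starting 186 bases before the start, and neither of the other motifs. The SERPINE2 window held 7 CCAAT matches, starting 250, 215, 181, 138, 104, 61 and 27 bases before the start, and 1 GC box. A similar stretch of letters recurs along this window and holds these matches, so they are not independent of each other. Of 35116 windows of this length, 6.57% held an AP-1 match, 32.0% a CCAAT match and 42.6% a GC box. In 7 windows there were 7 or more CCAAT matches. That cut was taken from the SERPINE2 window itself, so its rarity is no test. PLAT had no window available and was not searched for motifs. The other PLAU window held 1 CCAAT match and no GC box. The other SERPINE2 window held 2 GC boxes and no CCAAT match, and the SERPINB2 window held 1 AP-1 match. These matches are letters in a window, and the arrays measured no binding there.

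PLAU, the gene of the urokinase-type activator, fell in α3 knockdown cells. Its transcript cluster (3252036) measured 2056 and 2068 in the knockdown arrays, against 3325 and 3403 in the control arrays. The groups did not overlap (knockdown lower, as in 39.7% of all tested clusters). The 2 arrays of each group lay close together, at 2062 ± 8.55 in knockdown and 3364 ± 55.5 in control (SD, n = 2 each). The log2 difference was -0.70 ± 0.071 (SE), a 1.63-fold lower level in knockdown (adjusted p = 0.00310, limma). The call held in all 13 alternative settings run for this gene, with log2 differences of -0.79 to -0.61 and adjusted p between 0.000892 and 0.0160.

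PLAUR, the gene of the urokinase receptor, measured 1594 and 1577 in knockdown and 1883 and 1881 in control. Both knockdown arrays lay below both controls, as they did in 39.7% of all tested clusters. The log2 difference was -0.24 ± 0.071 (SE), with a 95% interval of -0.42 to -0.073, and did not pass after adjustment (adjusted p = 0.0559, limma). It stood just outside the threshold and passed when the lower 60% of clusters were left out (adjusted p = 0.0491). Centring each array on its median brought the difference to -0.15 (adjusted p = 0.180).

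PLAT, the gene of the tissue-type activator, measured 2841 and 2661 in knockdown and 3154 and 3077 in control. The groups did not overlap (knockdown lower, as in 39.7% of all tested clusters). The spread between the knockdown arrays (SD 127, n = 2) was wider than that between the controls (SD 53.8, n = 2). The log2 difference of -0.18 ± 0.076 (SE) had a 95% interval of -0.36 to 0.0064 and did not pass (adjusted p = 0.151, limma). After centring it was -0.088 (adjusted p = 0.489).

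SERPINE2, which encodes protease nexin-1, a serpin that inhibits thrombin, uPA and tPA, rose in α3 knockdown cells. Its cluster (2601414) measured 539 and 591 in the knockdown arrays, against 343 and 374 in the control arrays. Both knockdown arrays lay above both controls, at 565 ± 37.4 in knockdown and 358 ± 22.0 in control (SD, n = 2 each). The log2 difference was 0.63 ± 0.096 (SE), a 1.55-fold higher level in knockdown (adjusted p = 0.00851, limma). Of all tested clusters, 22.2% had both knockdown arrays above both controls. Without knockdown replicate 2, whose value was the higher of the pair, the difference was 0.57 and no longer passed (adjusted p = 0.0681). The plot of intensities by array shows the opposite order of the groups for PLAU and SERPINE2.

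**Figure D1:**
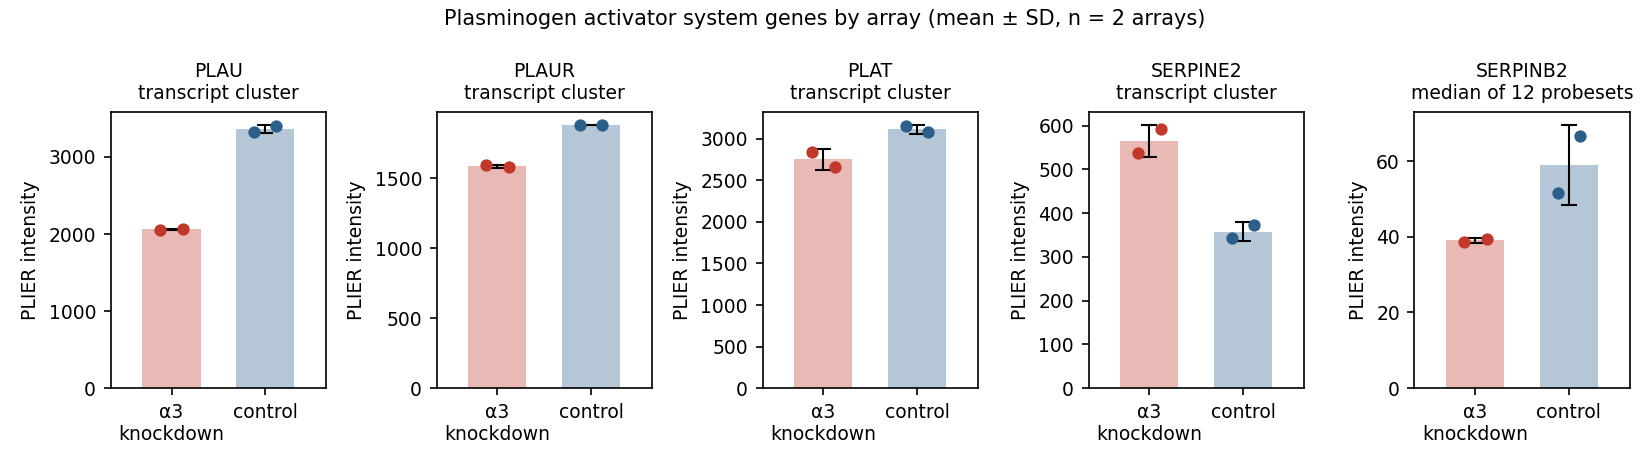
PLIER intensity of each member in α3 knockdown (red) and control (blue) arrays, as points with the mean (bar) and SD (whisker) of n = 2 arrays, with a linear axis from 0 in each panel. PLAU lies at 2056 and 2068 in knockdown against 3325 and 3403 in control, SERPINE2 at 539 and 591 against 343 and 374, and SERPINB2 is drawn as the median of its 12 probesets.

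Because a shift of a whole array cancels in the ratio of 2 genes on it, the changes of members were also set against each other within arrays. Relative to the control mean, log2 of SERPINE2 over PLAU was 1.27 and 1.40 in the knockdown arrays and -0.043 and 0.043 in the control arrays, a change of 1.34. The ratio of PLAU over PLAUR changed by -0.46 (-0.47 and -0.45 in knockdown, -0.018 and 0.018 in control). That of PLAU over PLAT changed by -0.52. That of PLAUR over PLAT changed by -0.066 (-0.10 and -0.027 in knockdown, -0.017 and 0.017 in control). With 2 arrays against 2 an exact two-sided permutation test cannot go below p = 0.333, which was the value of all 6 ratios formed among the 4 genes.

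At the exon level the fall of PLAU was spread along the gene. All 16 PLAU probesets had a lower mean in knockdown, 15 of them with both knockdown arrays below both controls, where 31.4% of the 172397 probesets tested showed that order. The call was reached by 12 of the 16, against 3.33% of tested probesets called lower, with adjusted p from 0.00884 to 0.0349 (limma). Log2 differences ran from -1.09 ± 0.23 (SE) at probeset 3252045, which measured 111 and 128 in knockdown and 269 and 276 in control, to -0.35 ± 0.20 (SE) at probeset 3252042, which measured 1048 and 786 in knockdown and 1370 and 989 in control. The groups overlapped only at 3252042. Probeset 3252054, singled out after the values were seen as the brightest of PLAU, measured 6061 and 5731 in knockdown and 7445 and 7998 in control, and its difference of -0.39 ± 0.099 (SE) did not pass (adjusted p = 0.0619). Probesets of a gene share their RNA and arrays and are not replicates. The count of 12 depended on the test setting, being 14 with the replicate number as a block, 1 without the intensity trend in the variance, 0 without the filter on dim probesets (where 0.0418% of all probesets were called lower) and 7 to 9 with 1 array fewer.

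The SERPINE2 rise was also seen along most of the gene. In 12 of its 14 probesets both knockdown arrays lay above both controls, an order found in 17.7% of all probesets, and in the other 2 the groups overlapped. Of the 14, 4 were dim and left out, both overlapping ones among them. The call was reached by 2 of the 10 tested, probesets 2601423 and 2601431 (adjusted p = 0.0373 and 0.0390), where 1.33% of tested probesets were called higher. Probeset 2601423 measured 1034 and 1104 in knockdown and 544 and 698 in control, a log2 difference of 0.78 ± 0.17 (SE). The smallest tested difference, 0.30 ± 0.15 (SE), was at probeset 2601449, with 729 and 776 in knockdown and 601 and 616 in control, and the largest, 0.85 ± 0.38 (SE), at probeset 2601422, with 103 and 162 in knockdown and 43.7 and 93.3 in control. The control mean of 2601422, 68.5, lay under the bound of 99.4 for dim probesets, so it was tested only through its knockdown values. Among the dim probesets, 2601460 (chosen after the values were seen) measured 85.3 and 69.4 in knockdown and 88.3 and 73.9 in control, so the groups overlapped there. No SERPINE2 probeset passed without the filter (where 0.0150% of all probesets were called higher), without the intensity trend, without knockdown replicate 2 or without control replicate 1, 1 passed without knockdown replicate 1, and 4 passed under either other scaling. With the replicate number as a block 8 passed.

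For PLAUR, all 13 probesets were tested and 0 passed in limma, with 4 at an unadjusted p under 0.05, against 21.1% of all tested probesets, and 1 passing with the replicate number as a block. In all 13 the mean intensity was lower in knockdown, and in 9 both knockdown arrays lay below both controls, against the 31.4% of tested probesets in that order. The lowest log2 difference was -0.39 ± 0.12 (SE) at probeset 3864577, with 2155 and 2019 in knockdown and 2787 and 2676 in control (adjusted p = 0.0998), and the highest 0.0022 ± 0.28 (SE) at probeset 3864585, with 125 and 115 in knockdown and 140 and 102 in control. For PLAT, all 20 probesets were tested and 0 passed in limma, 0 of them at an unadjusted p under 0.05. The mean was lower in knockdown in 19 and both knockdown arrays lay below both controls in 12, against the same 31.4%. The exception was probeset 3133260, with 1327 and 1631 in knockdown and 1447 and 1239 in control (log2 difference 0.13 ± 0.15 (SE)), while the lowest difference was -0.29 ± 0.14 (SE) at probeset 3133264.

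**Figure D2:**
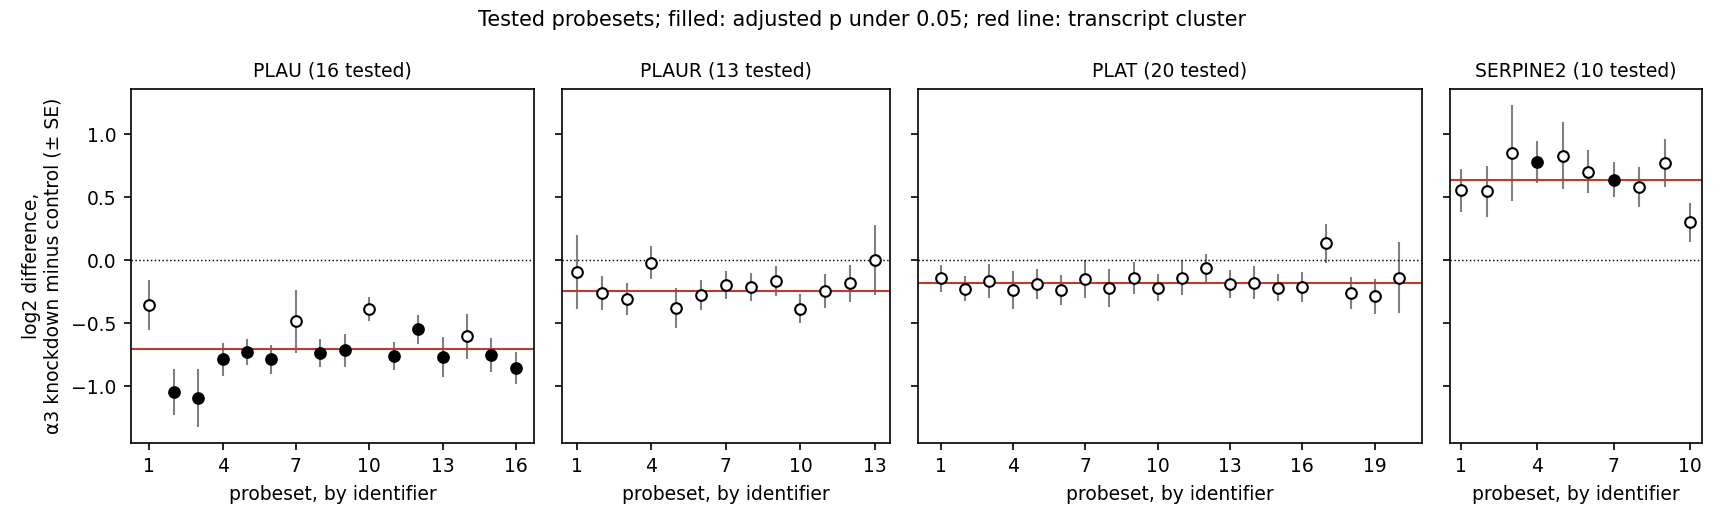
Log2 difference (α3 knockdown minus control, ± SE) of each tested probeset of PLAU, PLAUR, PLAT and SERPINE2, in order of identifier, with filled points at an adjusted p under 0.05 and a red line at the difference of the gene's transcript cluster. The 16 PLAU probesets all lie below 0 and the 10 tested SERPINE2 probesets above it, with 12 and 2 of them called.

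No member probeset passed a test for a change unlike that of the rest of its gene. Each tested probeset was compared with the mean of the other tested probesets of its gene, in genes with at least 3, and 0 of the 59 member probesets so tested passed, where 0.0586% of all probesets tested were called. The smallest adjusted p was 0.732 (limma), at SERPINE2 probeset 2601449, whose rise was smaller than that of the other probesets by 0.39 ± 0.15 (SE). In PLAU it was 0.778, at probeset 3252054, whose fall was smaller by 0.35 ± 0.14 (SE). In limma's diffSplice test 0 member probesets passed, against 0.400% of all probesets so tested. The Simes adjusted p of the 4 genes ran from 0.779 for PLAU to 0.995, where 3.64% of genes were called. Of all 59 unadjusted usage tests, 2 had p under 0.05.

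SERPINB2 encodes plasminogen activator inhibitor-2, a serpin that inhibits uPA and tPA and is found largely inside cells. Its probesets were dim, and 11 of 12 lay in the lower 40% of all probesets, under a mean intensity of 99.4. The median over its 12 probesets was 38.7 and 39.5 in knockdown and 51.5 and 66.5 in control. All 12 had a lower mean in knockdown, and in 11 both knockdown arrays lay below both controls, an order found in 27.5% of all probesets and 21.6% of those left out as dim. The only tested probeset, 3791954, measured 104 and 119 in knockdown and 123 and 120.4 in control, with a log2 difference of -0.12 ± 0.27 (SE) that missed the threshold (adjusted p = 0.853, limma). Of 2 others chosen after their values were seen, probeset 3791952 measured 37.5 and 41.7 in knockdown and 66.1 and 70.0 in control, and probeset 3791948 lay near 0, at 0.499 and 0.0076 in knockdown and 10.5 and 11.2 in control.

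When each gene was represented by the median log2 value of its probesets, over 16241 genes with at least 3 probesets, SERPINB2 had a log2 difference of -0.44 ± 0.18 (SE) with a 95% interval of -0.85 to -0.023 and did not pass (adjusted p = 0.190, limma). It ran from -0.57 with an offset of 1 to -0.25 with an offset of 64. In the same fit PLAU was lower (-0.79, adjusted p = 0.00228) and SERPINE2 higher (0.63, adjusted p = 0.0171), where 6.14% and 2.33% of genes were called lower and higher. PLAUR (-0.21, adjusted p = 0.282) and PLAT (-0.15, adjusted p = 0.399) did not pass.

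**Figure D3:**
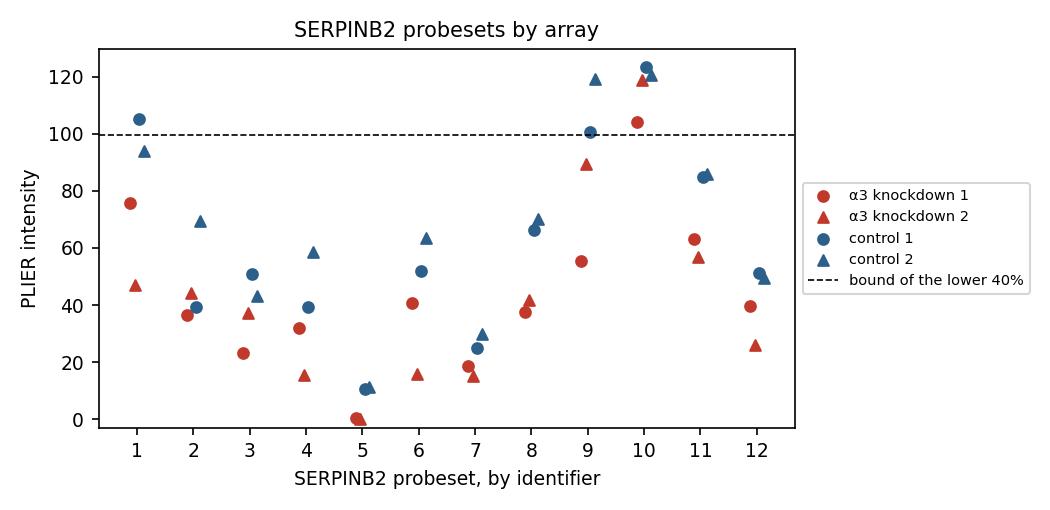
PLIER intensity of the 12 SERPINB2 probesets in each array, in order of identifier, for α3 knockdown (red) and control (blue), with circles for replicate 1 and triangles for replicate 2. Most points lie under the dashed line at 99.4, the bound of the lower 40% of probesets, and in 11 of 12 probesets both red points lie below both blue ones.

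Other genes of the pathway were read from a list of 37, of which 29 had a cluster annotated to a single gene and 18 were bright enough to test. In α3 knockdown 4 of the 18 fell, 1 rose and 13 did not pass, which is 22.2% lower and 5.56% higher, near the 15.4% and 6.00% of all clusters. Of the 18, 4 were still called lower under either other scaling, while 3 were called higher after quantile normalization and 4 after centring. The median log2 difference of the 18 was -0.010, and that of all tested clusters -0.056. Both medians turned above 0 under the other scalings, at 0.060 and 0.016 after quantile normalization and 0.081 and 0.035 after centring. The largest differences were in 2 protease inhibitors.

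TFPI2, a secreted Kunitz-type inhibitor of plasmin and related proteases, measured 132 and 151 in knockdown and 315 and 352 in control. It was 2.21-fold lower in knockdown (log2 difference -1.15 ± 0.12 (SE), adjusted p = 0.00316, limma). SERPINB8, an intracellular serpin known as an inhibitor of furin, measured 181 and 207 in knockdown and 415 and 480 in control and was also lower (-1.14 ± 0.12 (SE), adjusted p = 0.00319). In both genes the groups lay far apart, and both calls held in every alternative setting that tested them.

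The other 3 calls were smaller. PLGRKT, which encodes a membrane receptor for plasminogen, measured 165 and 169 in knockdown and 220 and 262 in control (-0.49 ± 0.12 (SE), adjusted p = 0.0356, limma). LRP1, the endocytic receptor that clears complexes of activators with serpins, measured 149 and 161 in knockdown and 208 and 241 in control (-0.49 ± 0.12 (SE), adjusted p = 0.0345). ITGB3, the β3 subunit of a vitronectin receptor that partners the urokinase receptor, measured 177 and 211 in knockdown and 130 and 132 in control (0.51 ± 0.13 (SE), adjusted p = 0.0347). In these 3 genes the groups did not overlap, as in 39.7% (knockdown lower) and 22.2% (knockdown higher) of all tested clusters. The calls were weak. ITGB3 no longer passed whichever single array was left out (adjusted p from 0.0700 up to 0.236), and those of PLGRKT and LRP1 without knockdown replicate 1 (0.155 and 0.174), knockdown replicate 2 (0.152 and 0.125) or control replicate 2 (0.0947 and 0.0972). All 3 were also lost without the filter on dim clusters (0.0647 to 0.0679).

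The brightest listed genes that did not pass were plasminogen-binding proteins of the cell surface. ENO1, which encodes α-enolase, measured 13129 and 14080 in knockdown and 13486 and 12791 in control, so the groups overlapped (log2 difference 0.050, 95% interval -0.17 to 0.26). S100A10 measured 11076 and 12333 in knockdown and 10679 and 10581 in control (0.14, interval -0.083 to 0.36). ANXA2, whose protein pairs with S100A10 and whose signal is uncertain because of near-identical pseudogenes, measured 4068 and 4176 in knockdown and 4056 and 4563 in control (-0.062, interval -0.27 to 0.15). The plot of gene-level differences shows these intervals around 0.

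**Figure D4:**
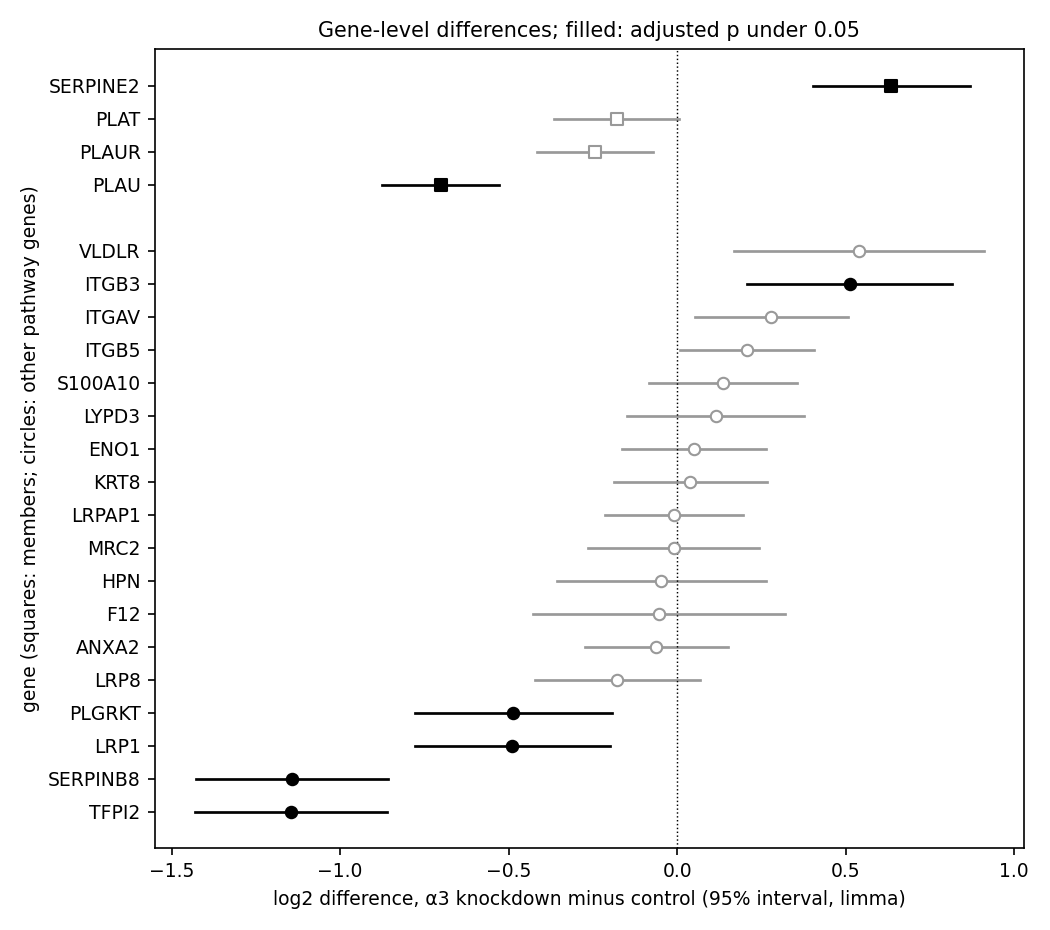
Log2 difference (α3 knockdown minus control) with its 95% interval from limma for the 4 members with a transcript cluster (squares, top) and the 18 tested genes of the pathway list (circles), filled at an adjusted p under 0.05. PLAU lies at -0.70 and SERPINE2 at 0.63, and TFPI2 and SERPINB8 lie farthest to the left at -1.15 and -1.14.

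The genes with patterns most like each member were sought among 9227 tested genes with a single symbol, by the Euclidean distance over the 4 gene-level arrays between log2 values centred on the control mean. For PLAU these were STX18 (distance 0.0174), PRDM8 (0.0209) and ZSCAN26 (0.0212). STX18, for example, measured 313 and 317 in knockdown and 521 and 532 in control. For SERPINE2 they were TNFAIP2 (0.0313), IL31RA (0.0354) and MPHOSPH10 (0.0488), and TNFAIP2 measured 981 and 1044 in knockdown and 620 and 678 in control. For PLAUR they were ISOC1 (0.0176), OSBPL5 (0.0179) and PGAP2 (0.0182), and for PLAT COX8A (0.00986), GTF2E1 (0.0123) and MED23 (0.0145). With 4 arrays in 2 groups, likeness in this measure means a difference of like size and little more.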

How the data were processed

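RNA of 2 α3 knockdown and 2 control cultures of MDA-MB-231 cells was hybridised to Affymetrix Human Exon 1.0 ST arrays. The deposited values are intensities on a linear scale, made by the authors with PLIER in Affymetrix Expression Console from the core gene and core exon probesets, per the labels. The 8 samples are these 4 arrays, each summarised once by gene and once by exon. The sources used here do not give software versions, background correction, normalization between arrays or the genome build. Array medians differ, and the authors' scaling was kept. Sample titles gave the groups and the replicate numbers. The number of arrays limits the precision of every value.

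Names come from the platform annotation, with symbols updated by Entrez identifier or unambiguous synonym in RefSeq gene names (GRCh38.p14, used for names and promoter windows only). Of 22011 transcript clusters, 14432 had 1 symbol, 2408 several and 5171 no row, and of 287329 probesets 261273, 9155 and 16901. Those with several symbols or none entered the tests without a name, among them a dim cluster shared by PLAU and another gene. A gene with several clusters is represented by the brightest.

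Intensities were taken as log2(value + 16), which understates changes of dim genes, and features in the lower 40% by mean over the 4 arrays were left out. The comparison used limma version 3.58.1 under R 4.3.3, with a two-sided moderated test, group alone in the model (leaving 2 residual degrees of freedom), a variance trend on intensity, and Benjamini-Hochberg adjustment over all features tested. The data.table package was version 1.17.8, and figures were drawn with matplotlib 3.10.9 in Python 3.11.15. Simulated data were used only for the gene-level fit, the exon-level fit and the comparison of each probeset with the rest of its gene. Other steps, among them the probeset medians, diffSplice, ratios within arrays, nearest patterns and promoter matches, were not simulated. The members and lists were chosen with earlier results of these data known. Named genes are the members, ITGA3, called pathway genes, the 3 brightest uncalled ones, the 3 nearest patterns of each member, and the extreme tested probesets of each member. Exceptions are marked. The alternatives were other offsets, filters, variance model and scalings, a replicate block, 1 array fewer, probeset medians and diffSplice.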

Additional observations from a re-analysis of the deposited data

How the results depend on the processing

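The log2 differences of the 4 members with a cluster, of SERPINB2 and of the 5 called pathway genes kept their direction in the alternatives run for each. The median of all tested clusters did not, being -0.056 on the deposited scale, 0.016 after quantile normalization and 0.035 after centring. Single probesets were recomputed only as counts of calls. PLAU passed and PLAT did not in all 13 alternatives run for each. PLAUR (log2 difference -0.24) crossed the threshold when the lower 60% of clusters were left out (adjusted p = 0.0491) and with the replicate number as a block (0.0489), and its other 11 alternatives did not pass. With 1 array fewer SERPINE2 ran from 0.57 to 0.70, with adjusted p from 0.0199 to 0.0681, and the members called numbered 1 to 2. Member probesets called numbered 14, but 0 without the filter, 1 without the intensity trend, 23 with the replicate block and 7 to 9 with 1 array fewer. Listed pathway genes called numbered 5, but 2 without the filter, 7 after quantile normalization (4 lower, 3 higher) and 8 after centring (4 and 4). With the lower 60% left out 1 was called, SERPINB8, while TFPI2, PLGRKT, LRP1 and ITGB3 fell under that filter and were not tested. Of all probesets 8022 were called, but 163 without the filter, 1903 without the trend, 29131 with the block and 3028 to 5385 with 1 array fewer.

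Of all transcript clusters 793 were higher and 2033 lower. The higher ones numbered 485 without the filter, 1351 after quantile normalization, 1494 after centring and 1332 with the block. Both scalings also moved the lower ones, to 1700 and 1529. With 1 array fewer 169 to 892 were higher and 671 to 1918 lower, 840 to 2417 in all. Where a group was down to 1 array, its spread was taken from the other group. Same-numbered arrays deviated together (r = 0.29 across clusters), but the labels do not say that the numbers pair the cultures, and 2 pairs are too few to tell. The block changed no other member call at the gene level. The causes of these shifts were not tested. Another filter changes both the features from which the variance trend is fitted and the number that enter the adjustment, and these were not separated. For SERPINB2, alternatives added after the data were seen gave -0.58 to -0.25, none of them passing. Every value rests on 4 arrays, and features under the filter have no test.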

Other observations

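Of the 29 listed pathway genes with a cluster of their own, 11 were too dim to test, and they were looked at after their values were seen. In 3 of them both knockdown arrays lay below both controls and in 2 above, orders found in 23.1% and 14.5% of the clusters left out as dim. SERPINI1, which encodes neuroserpin, an inhibitor of tPA, measured 26.9 and 30.4 in knockdown and 47.5 and 62.1 in control. SORL1, a sorting receptor known to bind the urokinase receptor and its complexes, measured 57.3 and 59.7 in knockdown and 92.6 and 114 in control. A2M, the gene of the protease trap α2-macroglobulin, measured 40.7 and 40.9 in knockdown and 42.8 and 45.2 in control. VTN, the gene of vitronectin, a ligand of the urokinase receptor, measured 61.5 and 66.7 in knockdown and 46.6 and 49.0 in control, and FPR1 measured 46.6 and 52.5 in knockdown and 40.6 and 46.5 in control. None of these values has a test.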
